A study of Homo sapiens with 8 samples.

Results

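The genes followed here, 10 in number, belong to the hypoxia response: HIF1A, EPAS1, ARNT, EGLN1, EGLN3, VEGFA, CA9, BNIP3, ADM and NDRG1. Each symbol was matched by its name in the gene table and had 1 row there, so the set is 10 of 60332 genes. RNA was sequenced from 2 Ewing sarcoma cell lines, RD-ES and SK-N-MC, and each gave 2 control and 2 eKD2 libraries. The eKD2 cells carried a lentivirus with dCas9-KRAB, a Cas9 that does not cut DNA joined to a repressor domain, and a guide placed near the GGAA repeat in the enhancer of LOXHD1. The control cells carried the same dCas9-KRAB virus without a guide according to the labels, whereas the study's account of its results calls them parental cells. Per the labels, the cells of all 8 libraries were infected at a multiplicity of infection (MOI) of 10, kept for 3 days in puromycin (1 µg/ml) and then used as pools, not clones, for at most 5 passages. The cells grew in RPMI with serum at 37°C and 5% CO2, and no hypoxia is named for these libraries, so the values are those of cells in routine culture.

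HIF1A and EPAS1 encode the alpha subunits of the hypoxia-inducible factors (HIF), which pair with the beta subunit ARNT and bind DNA at short motifs with the core ACGTG or GCGTG. When oxygen is present, the prolyl hydroxylases EGLN1 and EGLN3 mark the alpha subunits for degradation through VHL, so HIF activity is set largely at the level of protein, which RNA does not show. VEGFA, CA9, BNIP3, ADM and NDRG1 are widely used as target genes of the response, and EGLN3 and, less strongly, EGLN1 are targets themselves.

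The core motif was searched on both strands (ACGTG and GCGTG, or CACGT and CACGC on the other strand) in the RefSeq promoters of build GRCh38.p14, from 250 bases before to 50 after each start. A palindromic CACGTG counts on both strands. Promoters of 8 of the 10 genes were in the table, and those of 6 genes held at least 1 match, among 35116 promoters of which 48.4% held one. The promoters of ARNT and EGLN3 held none. Windows of 30 bases are shown for EGLN1, CA9, BNIP3 and ADM, the genes with a promoter in the table whose means in SK-N-MC eKD2 cells were lowest relative to control, and capitals mark the matches. They lie at chr1:231422288-231422317 (EGLN1, minus strand), chr9:35673898-35673927 (CA9, plus strand), chr10:131982038-131982067 (BNIP3, minus strand) and chr11:10304960-10304989 (ADM, plus strand).
EGLN1: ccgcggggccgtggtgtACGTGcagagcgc
CA9: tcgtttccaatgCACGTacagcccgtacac
BNIP3: gCACGCgccgCACGTGccaCACGCacccca
ADM: gagcaggagcgcGCGTGgctgaggaaagaa
The match of CA9 began 18 bases before the start, that of EGLN1 13 bases and that of ADM 101 bases before it. BNIP3 held 6 matches between 143 and 104 bases before the start, 4 of them in the window shown. A match describes letters and not a bound site.

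Values are FPKM, reads per transcript length and per library size, and were compared as log2(FPKM + 1) with limma over the 15175 genes whose mean reached 1 FPKM. Of the 10 genes, 8 passed this filter. ADM and EPAS1 lay below it and were tested in a fit with no filter, which was added after their values were seen. The study calls the libraries of a group biological duplicates, and the labels do not name separate cultures, so the p-values measure the spread between these libraries. With 2 libraries on each side, the smallest two-sided p of an exact permutation test is 0.33. The read number is not given with the values. Steps between low FPKM values put the depth of the libraries at 0.578 to 2.32 times that of the first RD-ES control library, with the first RD-ES eKD2 library the shallowest. LOXHD1, the gene next to the silenced enhancer, had 21.4 and 21.2 FPKM in RD-ES control and 1.04 and 1.02 FPKM in eKD2 libraries, and 159 and 169 against 11.0 and 11.95 FPKM in SK-N-MC. All 8 markers of Ewing sarcoma cells examined passed the filter, with summed levels of 1353 to 2144 FPKM, although NR0B1 stood at 3.08 FPKM in RD-ES control against 53.1 FPKM in SK-N-MC control. Of 8 markers of other cells, PECAM1 was not matched by name, TEK was at 0 in every library, and CDH5, DES and MYOD1 did not exceed 0.572 FPKM. PTPRC, a leukocyte marker, was at 19.2 to 22.6 FPKM in the SK-N-MC libraries and at 0 to 0.0173 FPKM in RD-ES. EPCAM, an epithelial marker, was at 4.03 and 4.54 FPKM in SK-N-MC control against 3.68 and 2.96 FPKM in eKD2. In RD-ES it was at 0.300 to 0.971 FPKM. KRT18, also epithelial, was at 35.2 to 54.4 FPKM in SK-N-MC and 36.8 to 43.3 FPKM in RD-ES.

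Levels were first compared in cells without the enhancer guide. On the FPKM scale, which is per transcript length, HIF1A was the highest of the set in each line, at 74.0 ± 3.02 FPKM in RD-ES and 106 ± 2.83 FPKM in SK-N-MC (SD, n = 2 each). VEGFA, BNIP3 and ARNT followed in this order in both lines. In RD-ES the order went on with EGLN1, EGLN3, NDRG1, EPAS1, ADM and CA9, where EPAS1 libraries overlapped those of NDRG1 and ADM. In SK-N-MC it went on with NDRG1, EGLN1, CA9, ADM, EPAS1 and EGLN3, where NDRG1 and EGLN1 libraries overlapped.

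**Figure D1:**
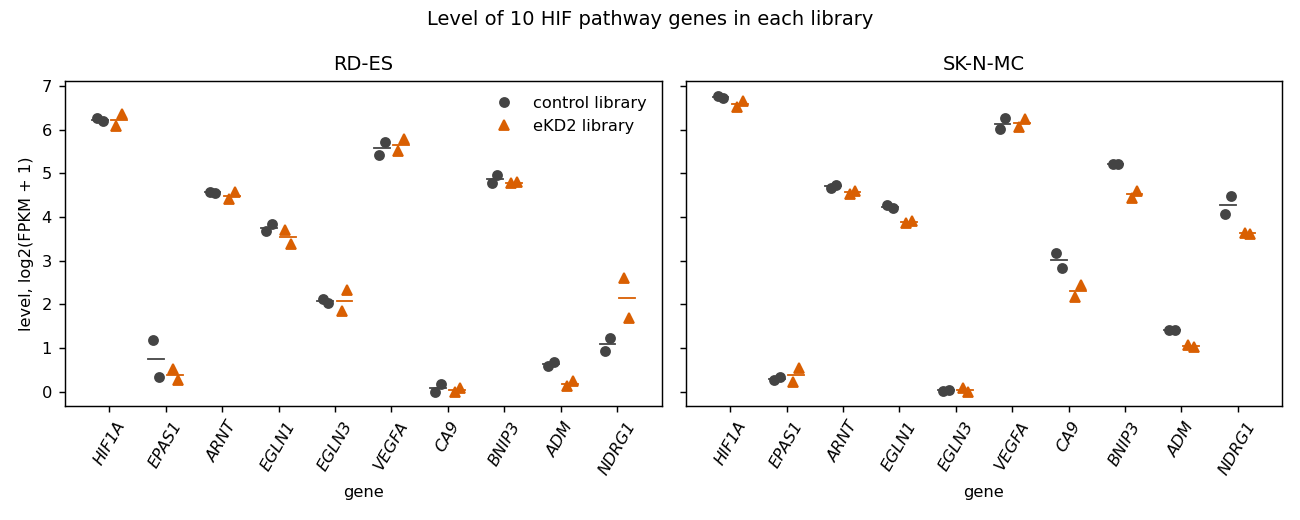
Level of the 10 genes in every library as log2(FPKM + 1), with RD-ES on the left and SK-N-MC on the right. Circles are control and triangles eKD2 libraries, and the short lines are means of 2 libraries; CA9 lies near 0 in RD-ES and EGLN3 near 0 in SK-N-MC.

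CA9, EGLN3 and NDRG1 set the lines apart most. CA9 encodes a carbonic anhydrase of the cell surface. It was listed at 0 and 0.123 FPKM in the RD-ES control libraries and at 8.03 and 6.15 FPKM in those of SK-N-MC, a log2 difference of 2.92 (standard error 0.198, limma adjusted p = 9.5e-05). EGLN3 showed the reverse, with 3.34 and 3.10 FPKM in RD-ES control and 0.0132 and 0.0300 FPKM in SK-N-MC control. Its log2 difference was -2.05 (standard error 0.216, limma adjusted p = 5.0e-04). Both genes passed the filter only through the line in which they are high, so that they differ was fixed by the filter. A pseudocount of 0.1 in place of 1 moved the log2 differences to 5.58 for CA9 and -4.77 for EGLN3, since the lower values are near 0. NDRG1, a gene of stress and differentiation, was at 0.897 and 1.35 FPKM in RD-ES control and at 15.6 and 21.3 FPKM in SK-N-MC control, a log2 difference of 3.19 (limma adjusted p = 3.9e-04) and a 16.4-fold ratio of the means.

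The other genes differed less between the control cells of the lines. HIF1A was 1.44-fold, VEGFA 1.49-fold, EGLN1 1.42-fold and BNIP3 1.28-fold higher in SK-N-MC, with limma adjusted p of 0.0063, 0.025, 0.019 and 0.019. ARNT stood at 22.7 ± 0.313 FPKM in RD-ES and 24.97 ± 0.984 FPKM in SK-N-MC (SD, n = 2 each) and did not pass the threshold (limma adjusted p = 0.21). With CA9 and EGLN3, 7 of the 8 tested genes had an adjusted p under 0.05 between the lines, where 57.8% of all tested genes did, and nothing is read from this count. Without the first RD-ES control library or the second SK-N-MC control library, 4 of the 8 remained past the threshold, and 5 without the first SK-N-MC control library. ADM, which encodes the peptide adrenomedullin, was 2.99-fold higher in SK-N-MC control (limma adjusted p = 0.0038 with no filter). EPAS1 was low in both lines, with overlapping libraries. Each line is a single cell line, so these differences are between RD-ES and SK-N-MC only, and in bulk RNA fewer cells with a transcript and less of it per cell cannot be told apart.

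In eKD2 cells, the means of HIF1A and ARNT differed from control by 0.398% and -5.29% in RD-ES and by -10.4% and -9.42% in SK-N-MC, and EPAS1 was too low and variable to place. None of the 10 genes reached a limma adjusted p under 0.05 in RD-ES, where 0.343% of all tested genes did, and none in SK-N-MC, where 0.323% did. At an unadjusted p under 0.05, RD-ES had 1 gene higher (NDRG1) and 0 lower of the 8 tested, against 8.49% and 3.79% of all tested genes. SK-N-MC had 3 genes lower (BNIP3, CA9 and EGLN1) and 0 higher, against 7.29% and 5.71%. ADM was at an unadjusted p under 0.05 and lower in both lines in the fit with no filter.

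HIF1A (ENSG00000100644, chromosome 14, 62147759 to 62263146, locus coordinates of the table on GRCh37) was at 76.1 and 71.8 FPKM in RD-ES control libraries against 67.2 and 81.3 FPKM in the eKD2 libraries. In SK-N-MC it was at 108 and 104 FPKM in control against 91.4 and 99.3 FPKM in eKD2 libraries. The eKD2 values enclosed the control values in RD-ES and lay below them in SK-N-MC. For RD-ES this gave a log2 fold change of -8.3e-05 (95% confidence interval -0.25 to 0.25, limma adjusted p = 1). For SK-N-MC it was -0.16 (-0.41 to 0.095, limma adjusted p = 0.57). The antisense genes HIF1A-AS1 and HIF1A-AS2 did not exceed 0.386 FPKM in any library. HIF1A-AS3, on the opposite strand over 5.80% of the HIF1A exon bases, was not matched by name. ENSG00000258964 covers 2.87% of them on the same strand. The loci given here and below can span neighbouring genes. HIF1A-AS1 and HIF1A-AS2 are listed at the same locus as HIF1A, and ARHGEF39 at that of CA9.

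ARNT (ENSG00000143437, chromosome 1, 150782181 to 150849244) was at 22.9 and 22.4 FPKM in RD-ES control against 20.3 and 22.6 FPKM in eKD2, and at 24.3 and 25.7 against 22.1 and 23.2 FPKM in SK-N-MC. The RD-ES libraries overlapped, and both eKD2 libraries of SK-N-MC lay below both control libraries, with a difference of the means of -9.42%. The log2 fold changes were -0.08 and -0.14, with limma adjusted p of 0.75 and 0.53.

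EPAS1 (ENSG00000116016, chromosome 2, 46520806 to 46613842), which encodes HIF2α, was at 1.26 and 0.255 FPKM in RD-ES control against 0.424 and 0.198 FPKM in the eKD2 libraries. The values in SK-N-MC were 0.199 and 0.258 FPKM in control against 0.170 and 0.444 FPKM in eKD2. Control and eKD2 overlapped in both lines, and the highest value came from 1 RD-ES control library. Without that library the log2 fold change in RD-ES went from -0.37 to 0.058.

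Of the hydroxylases, EGLN1 lay above 1 FPKM in every library and EGLN3 in those of RD-ES. EGLN1 (ENSG00000135766, chromosome 1, 231499497 to 231560790), the main oxygen sensor of the pathway, was at 18.2 and 17.3 FPKM in SK-N-MC control against 13.4 and 13.99 FPKM in eKD2 libraries. The groups did not overlap, and the mean differed by -22.9%. In RD-ES the libraries overlapped, with 11.8 and 13.2 FPKM in control against 12.1 and 9.43 FPKM in eKD2. The log2 fold change was -0.35 (standard error 0.127, limma adjusted p = 0.34) in SK-N-MC and -0.20 (standard error 0.127, limma adjusted p = 0.56) in RD-ES. In the annotation used for overlaps (GENCODE on GRCh37), the gene ENSG00000287856 lies on the same strand and covers 55.8% of the exon bases of EGLN1. It has no row in the gene table, so reads of both genes cannot be told apart.

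EGLN3 (ENSG00000129521, chromosome 14, 34393437 to 34931980) was at 3.34 and 3.10 FPKM in RD-ES control against 2.60 and 3.99 FPKM in eKD2 libraries. The eKD2 values enclosed the control values. In SK-N-MC no library exceeded 0.0639 FPKM, and 1 eKD2 library was listed at 0, too low to show a change.

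**Figure D2:**
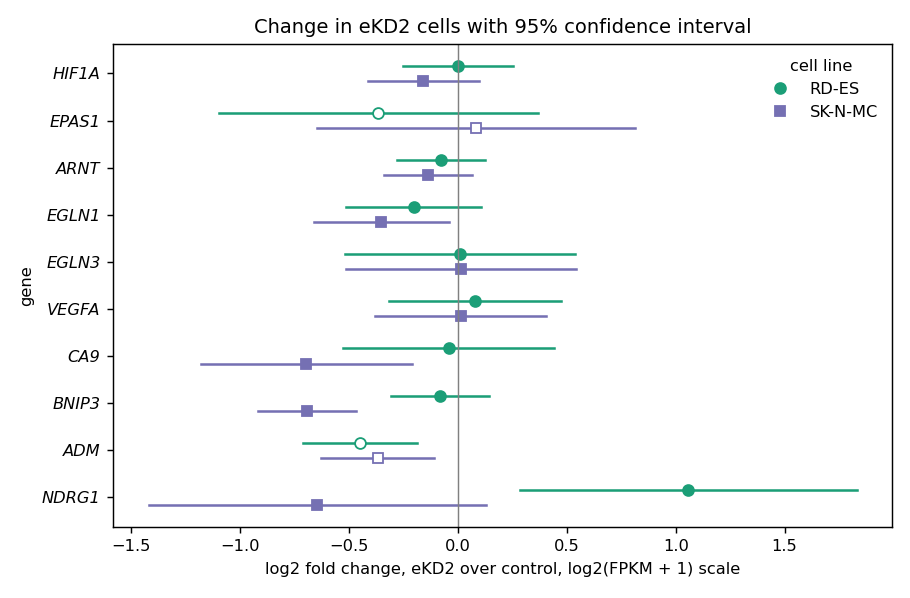
Log2 fold change of each gene, eKD2 over control, on the log2(FPKM + 1) scale, with bars for the 95% confidence interval. Circles are RD-ES, squares SK-N-MC, and open symbols the 2 genes fitted with no filter; BNIP3, CA9 and NDRG1 lie between -0.70 and -0.65 in SK-N-MC, while NDRG1 lies at 1.06 in RD-ES.

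Among the target genes, VEGFA libraries overlapped between eKD2 and control. For the other 4, both eKD2 libraries of SK-N-MC lay below control, where 25.1% of all tested genes were separated this way. None of the 4 passed the test, and ADM was tested only in the fit with no filter. VEGFA (ENSG00000112715, chromosome 6, 43737921 to 43754224), the growth factor of blood vessels, was at 41.8 and 51.7 FPKM in RD-ES control against 44.3 and 54.5 FPKM in eKD2. In SK-N-MC it was at 63.2 and 75.8 FPKM in control against 65.4 and 74.5 FPKM in eKD2. Control and eKD2 libraries overlapped in both lines. Log2 fold changes were 0.08 in RD-ES (95% confidence interval -0.32 to 0.47) and 0.01 in SK-N-MC (-0.38 to 0.41), with limma adjusted p of 0.89 and 1. Changes of either sign within these bounds remain compatible with these libraries.

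BNIP3 (ENSG00000176171, chromosome 10, 133779959 to 133795517), which encodes a mitochondrial protein of mitophagy and cell death, had the smallest p of the set. In SK-N-MC it was at 36.0 and 36.3 FPKM in control against 20.8 and 23.2 FPKM in eKD2, and in RD-ES at 26.5 and 30.1 against 26.4 and 26.9 FPKM. The eKD2 libraries lay far below control in SK-N-MC and overlapped control in RD-ES. In SK-N-MC the mean went from 36.2 ± 0.247 to 22.0 ± 1.73 FPKM (SD, n = 2 each), a difference of -39.2%. The log2 fold change was -0.69 (standard error 0.0924, limma adjusted p = 0.068), and BNIP3 ranked 61 of 15175 genes by p. Over the alternative settings the adjusted p ran from 0.045 to 0.33, and it was under the threshold in 1 of them, scaling each library to the same median. In RD-ES the log2 fold change was -0.08 (standard error 0.0924, limma adjusted p = 0.76).

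CA9 (ENSG00000107159, chromosome 9, 35658287 to 35681156) was at 8.03 and 6.15 FPKM in SK-N-MC control against 3.49 and 4.47 FPKM in eKD2 libraries. The groups did not overlap, and the mean differed by -43.9%. On the log2 scale the change was -0.70 (standard error 0.198, limma adjusted p = 0.25). In RD-ES it was listed at 0 in 1 library of each group and at 0.123 FPKM in control and 0.0587 FPKM in eKD2. ARHGEF39 lies on the opposite strand and covers 35.7% of the exon bases of CA9. The study describes no step that keeps strand in its TruSeq RNA libraries, so strand cannot be taken to separate their reads. ARHGEF39 was at 17.5 and 17.2 FPKM in SK-N-MC control and 17.5 and 18.5 FPKM in eKD2. In RD-ES, where CA9 was at or near 0, it was at 19.5 and 24.7 against 13.4 and 12.2 FPKM.

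ADM (ENSG00000148926, chromosome 11, 10326227 to 10328944) was the gene of the set whose eKD2 libraries lay below control in both lines. It was at 0.492 and 0.609 FPKM in RD-ES control against 0.0924 and 0.179 FPKM in eKD2. In SK-N-MC it was at 1.65 and 1.64 FPKM in control against 1.08 and 1.02 FPKM in eKD2. The means differed by -75.4% in RD-ES cells and by -36.3% in those of SK-N-MC. On the log2(FPKM + 1) scale, which understates changes at such levels, the fold changes were -0.45 (standard error 0.104, limma adjusted p = 0.25) and -0.37 (standard error 0.104, limma adjusted p = 0.33) in the fit with no filter.

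NDRG1 (ENSG00000104419, chromosome 8, 134249414 to 134314265) pointed in opposite directions in the lines. It was at 0.897 and 1.35 FPKM in RD-ES control against 5.07 and 2.19 FPKM in eKD2, and at 15.6 and 21.3 FPKM in SK-N-MC control against 11.3 and 11.3 FPKM in eKD2. The groups overlapped in neither line, with eKD2 above control in RD-ES and below it in SK-N-MC. The log2 fold change was 1.06 (standard error 0.317, limma adjusted p = 0.28) in RD-ES and -0.65 (standard error 0.317, limma adjusted p = 0.46) in SK-N-MC. The value in RD-ES rested in part on the first eKD2 library, the shallowest of all, and was 0.59 without it.

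Counted over all 10 genes, both eKD2 libraries lay below both control libraries for 7 genes in SK-N-MC (HIF1A, ARNT, EGLN1, CA9, BNIP3, ADM and NDRG1) and above them for 0. Of the 8 genes that passed the filter it was 6, where 25.1% of all tested genes were separated this way. In RD-ES, both eKD2 libraries lay below control for ADM, which was not among the tested genes (15.1% of all tested genes), and above control for NDRG1 (24.2%). The median log2 fold change of the 8 genes was -0.26 in SK-N-MC and -0.02 in RD-ES, beside -0.0049 and 0.03 for all tested genes. Of the 8 log2 fold changes in SK-N-MC, 6 were negative as deposited and after median scaling, and 7 after quantile normalization. Over all 15175 tested genes, 7747, 7459 and 7802 were negative in these settings. EGLN3, which did not exceed 0.0639 FPKM in SK-N-MC, was at -0.056 after quantile normalization, so its sign carries little.

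The difference between the lines in the eKD2 change was tested as an interaction. None of the 8 tested genes had a limma adjusted p under 0.05 for it, where 0.244% of all tested genes did, and 2 genes were lower at an unadjusted p under 0.05 and 0 higher, where 9.16% and 4.38% of all tested genes were. These were BNIP3, with a log2 difference of -0.61 (SK-N-MC minus RD-ES, limma adjusted p = 0.19), and NDRG1, with -1.71 (limma adjusted p = 0.23). CA9 is at or near 0 in RD-ES, so its difference between the lines restates the change in SK-N-MC. ADM differed by 0.08 with no filter (-0.29 to 0.45).

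For BNIP3, CA9, NDRG1 and EGLN1, the 4 tested genes with the smallest p in either line, the most similar gene was sought over the 8 libraries, after the mean of each line was subtracted, among 75 genes of the HIF and glycolysis lists. BNIP3 was most like LDHA, lactate dehydrogenase A (Pearson's r = 0.94). CA9 was most like PGK1, phosphoglycerate kinase 1 (r = 0.89), NDRG1 like BNIP3L, a relative of BNIP3 (r = 0.92), and EGLN1 like STC1, stanniocalcin 1 (r = 0.89). These are descriptions over 8 libraries that share their groups, with the best of 75 taken for each gene. Over all 8 tested genes the best r ran from 0.84 to 0.97. LDHA stood at 1065 and 1190 FPKM in SK-N-MC control against 876 and 904 FPKM in eKD2 libraries, whereas its RD-ES libraries ranged from 662 to 701 FPKM. In SK-N-MC its log2 fold change was -0.34 (limma adjusted p = 0.16).

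The further genes of the pathway were described in lists. Of 18 regulators of HIF, 17 were tested, and none had a limma adjusted p under 0.05 in either line. In RD-ES, 2 were higher and 1 was lower at an unadjusted p under 0.05, where 8.49% and 3.79% of all tested genes were, and in SK-N-MC 0 and 0. After median scaling the numbers were 0 higher and 2 lower in RD-ES and 1 and 1 in SK-N-MC. VHL, the ligase subunit that recognizes hydroxylated HIF alpha, was at 29.7 and 28.3 FPKM in RD-ES control against 37.1 and 33.97 FPKM in eKD2 (log2 fold change 0.28, limma adjusted p = 0.26). In SK-N-MC it was at 23.5 and 23.6 against 24.0 and 22.5 FPKM. SIAH2, a ligase that targets prolyl hydroxylases, was at 17.8 and 21.0 against 24.1 and 23.2 FPKM in RD-ES and at 48.8 and 47.7 against 38.2 and 43.2 FPKM in SK-N-MC (log2 fold change 0.28 and -0.24, limma adjusted p = 0.37 and 0.40). Its relative SIAH1 had log2 fold changes of 0.26 and -0.28. ELOC, the elongin C that binds VHL, had log2 fold changes of -0.17 and 0.12, and RACK1, an adaptor in oxygen-independent HIF1α turnover, -0.02 and 0.16. The median of the list was 0.0038 in RD-ES, beside -0.04 in SK-N-MC. ARNT2, a second beta subunit named after its values were seen, ranged from 6.39 to 9.20 FPKM in RD-ES and was listed at 0 in all 4 SK-N-MC libraries.

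Of 50 other HIF targets, 38 were tested. In RD-ES, 12 were higher and 0 lower at an unadjusted p under 0.05 (8.49% and 3.79% of all tested genes), and 2 of them, DDIT4 and STC2, rose with a limma adjusted p under 0.05. The balance moved with the scaling of the libraries, to 6 higher and 1 lower after median scaling and 7 and 1 after quantile normalization. Over all tested genes in RD-ES it was 1288 higher and 575 lower as deposited, 824 and 1175 after median scaling, and 919 and 792 after quantile normalization. DDIT4, an inhibitor of mTORC1, was at 4.42 and 4.26 FPKM in RD-ES control and 20.4 and 21.1 FPKM in eKD2 (log2 fold change 2.03, limma adjusted p = 7.2e-04). Over the alternatives the adjusted p of DDIT4 ran from 4.4e-04 to 0.12. STC2, stanniocalcin 2, was at 2.26 and 2.25 FPKM in RD-ES control and 9.69 and 14.6 FPKM in eKD2 (log2 fold change 1.99, limma adjusted p = 0.017). The call of STC2 was lost without any 1 of the control libraries or SK-N-MC eKD2 libraries (adjusted p of 0.0049 to 0.46 over the alternatives). Both genes are also known to respond to ATF4, the transcription factor of the integrated stress response, whose part in their values was not tested. In SK-N-MC their eKD2 libraries lay below control, with 64.4 and 69.3 against 48.5 and 54.8 FPKM for DDIT4 and 65.4 and 72.1 against 51.5 and 59.3 FPKM for STC2, and neither passed (limma adjusted p = 0.21 and 0.53).

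Among the 38 targets in SK-N-MC, 4 were lower and 3 were higher at an unadjusted p under 0.05, near the shares of all tested genes (7.29% and 5.71%), and none had a limma adjusted p under 0.05. EFNA1, an ephrin ligand, was at 21.9 and 25.9 FPKM in control against 12.9 and 14.7 FPKM in eKD2 (log2 fold change -0.75, limma adjusted p = 0.11). P4HA2, a collagen prolyl hydroxylase, was at 7.35 and 6.73 FPKM in control against 15.6 and 14.4 FPKM in eKD2 (1.00, limma adjusted p = 0.14). NDUFA4L2, a mitochondrial protein, was at 1.04 and 0.768 FPKM in control against 3.74 and 4.16 FPKM in eKD2 (1.38, limma adjusted p = 0.15). The targets thus lay on both sides of 0, and their median was -0.07 in SK-N-MC and 0.09 in RD-ES.

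**Figure D3:**
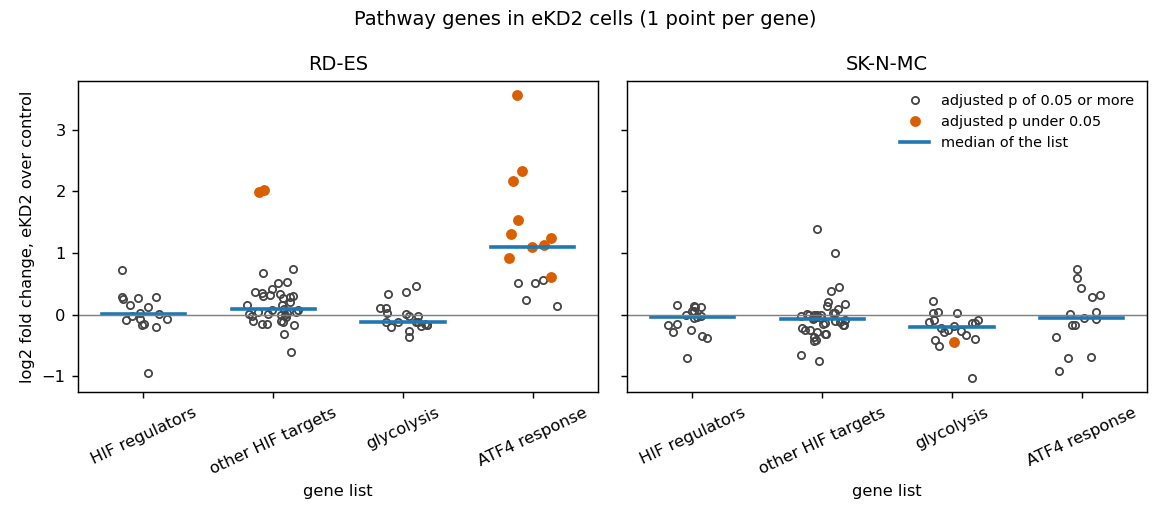
Log2 fold change, eKD2 over control, of each tested gene of 4 lists, with RD-ES on the left and SK-N-MC on the right; the horizontal spread within a list has no meaning. Filled points have an adjusted p under 0.05 and blue lines are list medians: 10 of 15 ATF4 response genes are filled on the left and 0 on the right.

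The glycolysis list, whose genes include several HIF targets, was lower in SK-N-MC for 8 of 20 tested genes at an unadjusted p under 0.05 and higher for 0, where 7.29% and 5.71% of all tested genes were. The median was -0.20, and 16 of 20 log2 fold changes were negative. PGK1 was the gene with a limma adjusted p under 0.05 there: it fell from 1083 and 1046 FPKM in control to 769 and 797 FPKM in eKD2 libraries (log2 fold change -0.44, standard error 0.0469, limma adjusted p = 0.034). This call was lost without any 1 of the 8 libraries, with the adjusted p at 0.027 to 0.25 over the alternatives. In RD-ES 4 genes of the list were lower and 1 was higher at an unadjusted p under 0.05, where 3.79% and 8.49% of all tested genes were. The median of the list there was -0.12. PGK1 was at 1207 and 1191 against 1037 and 1091 FPKM in RD-ES (-0.17, limma adjusted p = 0.25). PGAM1, phosphoglycerate mutase, was at 25.02 and 26.7 against 20.6 and 19.2 FPKM (-0.36, limma adjusted p = 0.23), and PFKFB4, a regulator of phosphofructokinase, at 3.63 and 3.19 against 4.53 and 4.83 FPKM (0.37, limma adjusted p = 0.28).

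The ATF4 response, a stress program that shares targets with HIF, was set beside the HIF genes. Like the other lists, this list was chosen with earlier results of these data known. All 15 genes of the list were tested. In RD-ES 13 were higher and 0 lower at an unadjusted p under 0.05, where 8.49% and 3.79% of all tested genes were. The median log2 fold change of the list was 1.09. A limma adjusted p under 0.05 was reached by 10 of the 15, all higher, and by 0.343% of all tested genes. The 10 were CHAC1, SESN2, ATF3, DDIT3, ASNS, TRIB3, ATF5, PSAT1, PPP1R15A and SLC7A11. Their log2 fold changes ran from 0.61 for PSAT1, an enzyme of serine synthesis, to 3.56 for CHAC1, which degrades glutathione. CHAC1 was at 3.02 and 3.63 FPKM in RD-ES control and 44.3 and 56.3 FPKM in eKD2, and at 96.9 and 107 against 49.97 and 57.1 FPKM in SK-N-MC. In SK-N-MC 4 genes of the list were higher and 4 lower at an unadjusted p under 0.05, where 5.71% and 7.29% of all tested genes were. None had a limma adjusted p under 0.05 in this line, where 0.323% of all tested genes did. There SESN2, a stress sensor, had a log2 fold change of -0.71 and TRIB3, a pseudokinase, 0.74 (limma adjusted p = 0.062 and 0.068), and CHAC1 -0.92 (limma adjusted p = 0.11).

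**Figure D4:**
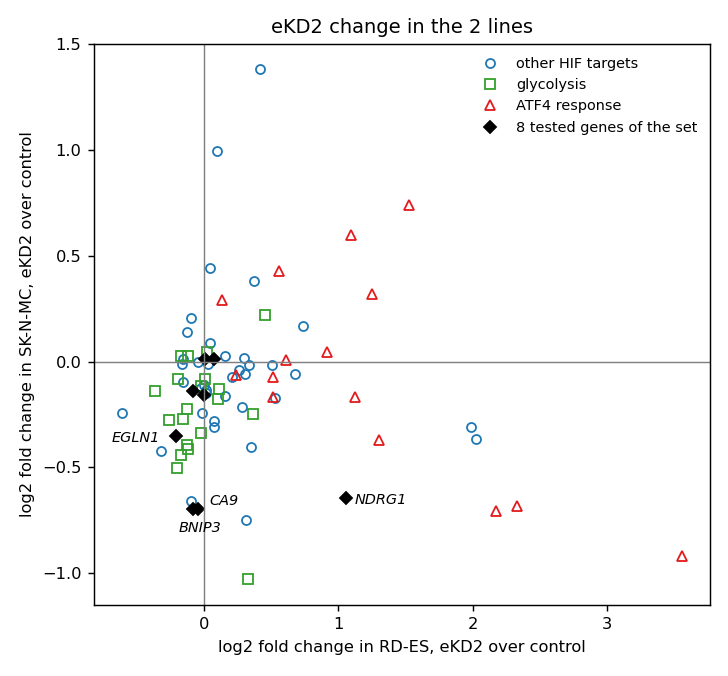
Log2 fold change in RD-ES (horizontal) against SK-N-MC (vertical), eKD2 over control, for the 8 tested genes of the set (diamonds), other HIF targets (circles), glycolysis (squares) and the ATF4 response (triangles). BNIP3, CA9 and EGLN1 lie below 0 in SK-N-MC, at -0.35 or lower, and between -0.20 and -0.04 in RD-ES, and NDRG1 lies right of 0 and below it.

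Of the markers of other cells, 3 were tested, and 1 of them, KRT18, was lower in SK-N-MC at an unadjusted p under 0.05, with no adjusted p under 0.05. The summed level of the list was 77.7 to 80.9 FPKM in SK-N-MC control and 57.8 to 62.6 FPKM in eKD2 libraries, most of it KRT18, a keratin also present in RD-ES, at 50.4 and 54.4 against 36.8 and 35.2 FPKM. PTPRC was at 22.6 and 21.5 against 21.8 and 19.2 FPKM. In RD-ES the sums were 43.5 to 44.03 FPKM in control and 37.4 to 41.9 FPKM in eKD2. The part of these markers in the values of the HIF genes was not tested.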

How the data were processed

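RNA from 8 libraries (2 per group) was analysed. The authors made poly-A libraries, sequenced single-end reads of 75 bases, aligned them to GRCh37 with STAR and computed FPKM per gene with cufflinks and cuffnorm, and these FPKM values were deposited. The study tested read counts with DESeq2, and read counts were not used here. Values were tested as log2(FPKM + 1) with limma 3.58.1 (R 4.3.3, lmFit and eBayes with trend, 4 groups in 1 fit, two-sided, Benjamini-Hochberg over the 15175 genes whose mean reached 1 FPKM). Tables were summarised with pandas 2.3.3 and numpy 2.4.6, and the fit was tested on simulated data. Alternatives were a pseudocount of 0.1, other filters (none, or 5 FPKM), median scaling, quantile normalization, each line alone, no trend, a replicate block and leaving out each library. A filter on a mean of 1 FPKM in any group and the fit of ADM and EPAS1 with no filter were added after seeing the data. Adding up the rows of a symbol would leave every value as it is, since each has 1 row. All 10 genes were named with LOXHD1, list genes with an adjusted p under 0.05 or otherwise the 3 of smallest p per line, and for 4 genes the most similar list gene. The genes and lists were chosen with earlier results of these data known.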

Additional observations from a re-analysis of the deposited data

Results flagged for a closer look

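Of 31 genes compared between the lines, 6 differed in their eKD2 change by the interaction test (limma adjusted p under 0.05), and none of these belongs to the 10 HIF genes. Over all tested genes the share was 0.244%, but the list genes had been picked in part for a small p within a line. Values are the change in SK-N-MC minus the change in RD-ES on the log2 scale. Among the HIF targets, DDIT4 differed by -2.40 (limma adjusted p = 0.0017) and STC2 by -2.30 (limma adjusted p = 0.046). Among the ATF4 response genes, CHAC1 differed by -4.48 (limma adjusted p = 0.0012), SESN2 by -2.88 (0.0012), ATF3 by -3.01 (0.0017) and DDIT3 by -1.68 (0.0048). All 6 genes were higher in both eKD2 libraries than in both control libraries in RD-ES and lower in both in SK-N-MC. Of all tested genes, 24.2% were separated upward in RD-ES and 25.1% downward in SK-N-MC. The 6 were picked by their difference between the lines in the same libraries, so nothing further is read from this separation. Over the alternatives the adjusted p reached 0.22 for STC2 and 0.074 for ATF3 and 0.058 for DDIT3, each with a replicate block, and it stayed under 0.05 for CHAC1, SESN2 and DDIT4. STC2 was also past 0.05 without any 1 of the control or SK-N-MC eKD2 libraries, with no filter, with no trend and with the filter on any group.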

How the results depend on the processing

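With 2 libraries per group, calls moved with the setting, including some far from the threshold, and the cause was not tested. In RD-ES, LOXHD1 went from a limma adjusted p of 1.1e-04 to as much as 0.059 over the alternatives. DDIT4 and CHAC1 reached 0.12 there, and SESN2 0.11. Of the 10 HIF genes, median scaling gave 1 with an adjusted p under 0.05 in SK-N-MC (BNIP3). Between the control lines the number was 4 to 7 without 1 library. In RD-ES, the HIF and glycolysis lists gave 2 genes, 0 with each line alone, 1 with a replicate block and 1 to 2 without 1 library, and the ATF4 list gave 10 genes, 0 with each line alone, 3 with a replicate block and 6 to 9 without 1 library. The 6 came without either SK-N-MC control library. In SK-N-MC, the HIF and glycolysis lists gave 1 gene (PGK1) and 0 with no filter, each line alone, no trend, a replicate block or any library left out, and the ATF4 list gave 1 gene with a mean of at least 5 FPKM or median scaling. The replicate numbers are shared labels only: same-numbered libraries deviated together with r = 0.056 (RD-ES) or 0.027 (SK-N-MC). Between eKD2 and control, a replicate block called 0 of the 10 genes in either line.

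Signs changed for log2 values that had not passed the test. With median scaling, EGLN3 in RD-ES was -0.049, the differences of ARNT and VEGFA between the lines were 0.021 and 0.016, and ARNT between the control lines was -0.0084. With quantile normalization, EGLN3 was -0.081 (RD-ES) and -0.056 (SK-N-MC), the difference of ARNT was 0.013, RACK1 was 0.072 in RD-ES with a difference of -0.051, and VHL in SK-N-MC was 0.014. A pseudocount of 0.1 took the difference of LOXHD1 to 0.42. Without 1 library, values in RD-ES ran from -0.14 to 0.14 for HIF1A, -0.79 to 0.058 for EPAS1, -0.23 to 0.24 for EGLN3, -0.071 to 0.23 for VEGFA, -0.13 to 0.041 for CA9, -0.17 to 0.0084 for BNIP3, -0.082 to 0.033 for RACK1 and -0.14 to 0.34 for P4HA2. For SK-N-MC they ran from -0.070 to 0.23 for EPAS1, -0.031 to 0.059 for EGLN3, -0.12 to 0.14 for VEGFA, -0.060 to 0.029 for VHL, -0.023 to 0.12 for PPP1R15A and -0.015 to 0.029 for PSAT1. Differences between the lines ran from -0.13 to 0.014 for ARNT, -0.31 to 0.016 for EGLN1, -0.23 to 0.24 for EGLN3 and -0.22 to 0.084 for VEGFA.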
